A study of Homo sapiens with 20 samples.

Results

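ChIP-seq with an MLL4 antibody was compared between wild-type (WT) HCT116 cells and HCT116 cells carrying an MLL4 knockout (KO). HCT116 is an established human colorectal carcinoma line. The members were all peaks on chromosomes 1 to 22 in the 2 MLL4 peak lists, 55887 in WT and 257 in KO, together 56144 of the 978185 peaks in the 18 peak lists of the series. Each genotype had 1 MLL4 library, so no value below has a replicate check and no test between genotypes was possible. Per the labels, WT and KO cells were received as a gift and grown in DMEM with serum, and no treatment is named. Cells were fixed with 1% paraformaldehyde for 5 min and chromatin was sonicated for 15 min. Whether the knockout line is 1 clone, and which part of the gene was deleted, was not stated in the labels.

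MLL4, the product of KMT2D, is a histone H3 lysine 4 methyltransferase. It works in a complex with WDR5, RBBP5, ASH2L and DPY30, which it shares with related enzymes, and with PAXIP1, PAGR1 and NCOA6, which are particular to the MLL3 and MLL4 complexes. MLL4 is known for placing H3K4me1, the mark of enhancers, and for recruiting acetyltransferases that add H3K27ac, the mark of active enhancers and promoters. H3K4me3 marks active promoters, and MLL1, encoded by KMT2A, is a related methyltransferase. Peaks found with the antibody in cells that lack the protein serve as a measure of signal that does not depend on MLL4.

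The lists of the histone marks gave the check on the cell label. H3K27ac peaks of both WT libraries lay within 1 kb of a start of 11 of 11 colon epithelium markers, among them CDH1, CDX2 and KRT8, and H3K4me3 peaks at 8 of 11. Of 6 hematopoietic markers, 4 had H3K27ac and 1, SPI1, had H3K4me3, and of 5 neuronal markers 2 had each mark. PTPRC, CD3E, STMN2 and NEUROD1 had neither mark. A peak list holds no measure of MLL4 protein, so the knockout label was not checked at the target itself. The KMT2D promoter carried H3K4me3 peaks in both WT libraries (178- and 186-fold) and in both KO libraries (161- and 199-fold).

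Several of the strongest WT-specific promoter peaks, and the promoter of CDKN1A, are shown by their sequence because they carry the contrast that runs through the data, peaks of high or low fold in WT with no peak in KO. Each line gives the 250 bases before a RefSeq start site on GRCh38.p14, read 5′ to 3′ on the strand of the gene. Capitals mark GC boxes, GGGCGG on either strand. Also searched on both strands were the CCAAT box, the TATA box spelled TATAAA, and the AP-1 element TGANTCA, and none of these motifs lay in the 5 windows.

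PARP2 promoter, chr14:20343385-20343634, plus strand: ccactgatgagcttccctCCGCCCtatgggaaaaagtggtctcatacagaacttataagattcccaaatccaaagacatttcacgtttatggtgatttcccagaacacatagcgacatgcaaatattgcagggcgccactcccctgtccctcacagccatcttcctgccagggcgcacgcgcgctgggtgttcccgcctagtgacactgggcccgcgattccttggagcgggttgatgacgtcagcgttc

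CFAP58 promoter, chr10:104338270-104338519, plus strand: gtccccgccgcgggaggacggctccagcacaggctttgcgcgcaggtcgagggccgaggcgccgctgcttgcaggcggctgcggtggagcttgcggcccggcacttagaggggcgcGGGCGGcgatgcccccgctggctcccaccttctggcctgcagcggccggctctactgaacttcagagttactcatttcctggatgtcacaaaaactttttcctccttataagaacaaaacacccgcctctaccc

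ITPRIP promoter, chr10:104338466-104338715, minus strand: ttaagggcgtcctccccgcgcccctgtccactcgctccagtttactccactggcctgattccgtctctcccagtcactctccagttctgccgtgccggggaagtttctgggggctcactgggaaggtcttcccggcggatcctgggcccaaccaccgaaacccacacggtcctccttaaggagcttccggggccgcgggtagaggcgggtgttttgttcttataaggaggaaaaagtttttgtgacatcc

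ZDHHC8 promoter, chr22:20131554-20131803, plus strand: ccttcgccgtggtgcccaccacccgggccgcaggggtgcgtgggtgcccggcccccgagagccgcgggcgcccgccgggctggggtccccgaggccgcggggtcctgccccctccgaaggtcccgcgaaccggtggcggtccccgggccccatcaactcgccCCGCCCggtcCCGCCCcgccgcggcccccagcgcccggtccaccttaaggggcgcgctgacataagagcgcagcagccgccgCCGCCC

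CDKN1A promoter, chr6:36678464-36678713, plus strand: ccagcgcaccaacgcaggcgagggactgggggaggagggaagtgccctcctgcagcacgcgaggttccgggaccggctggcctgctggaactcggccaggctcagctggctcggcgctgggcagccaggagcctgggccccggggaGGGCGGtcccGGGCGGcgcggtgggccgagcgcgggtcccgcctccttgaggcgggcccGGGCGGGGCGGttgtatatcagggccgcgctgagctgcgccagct

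PARP2, a DNA repair enzyme, shares its promoter with RPPH1, the RNA of ribonuclease P, and the WT peak there reached 139-fold. That peak, chr14:20342963-20343407, lies on the RPPH1 gene (chr14:20343071-20343411). The PARP2 window above overlaps only the end of the peak, and most of its sequence lies outside it. CFAP58 and ITPRIP are divergent genes under 1 WT peak of 67.9-fold, and the window of ITPRIP holds no GC box. ZDHHC8, a palmitoyltransferase gene, had a peak of 57.5-fold and a GC content of 81.2%. CDKN1A, the gene of the p53-driven cell cycle inhibitor p21, had a promoter peak of 5.00-fold that rested on 5 fragments. None of these promoters had a KO peak. GC boxes were frequent at WT-specific promoters in general: of 4185 promoter windows of 300 bases with a WT-specific peak, 81.9% held GGGCGG on either strand, against 56.6% of all 21041 windows. The median GC content was 69.7% at WT-specific promoters and 62.7% over all windows. Of 8575 windows with WT H3K4me3 and no MLL4 peak, 71.3% held a GC box and the median GC content was 65.0%. TGANTCA was in 3.82% of windows with a WT-specific peak and in 6.09% of all windows, and CCAAT in 31.5% and 34.4%. A motif match describes letters and is not a measured binding site.

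Few MLL4 peaks of the WT list were also in the KO list. With an overlap of at least 1 bp, 138 of the 55887 WT peaks (0.247%, 95% Wilson interval 0.209 to 0.292) also lay under a KO peak, and 55749 (99.8%) were WT-specific. In the other direction, a WT peak lay over 117 of the 257 KO peaks (45.5%, 39.5 to 51.6), and 140 were called in KO only. The log2 ratio of peak numbers, KO over WT, was -7.76. It was -5.37 with a −log10 q-value of at least 5 in both lists, -5.36 with WT peaks of at least 6 fragments, and -9.46 with peaks on a background below 2 times the genome-wide level, a quantity described below. The share of WT peaks that were also in KO rose to 1.23% among WT peaks of at least 6 fragments, and to 7.39% among the 257 WT peaks of highest −log10 q-value, which overlapped 9.34% of the KO peaks. All intervals cover counting error over peaks only, and neighbouring peaks are not independent.

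The depth behind these lists was recovered from the deposited values. MACS2 gives a fold, which is the fragments at the summit plus 1 over the expected background plus 1, and a Poisson p-value of the same numbers. Solving both returned a whole number of ChIP fragments and an expected background for 55887 of 55887 WT peaks and for 257 of 257 KO peaks, within 0.002 of the deposited −log10 p-value. The genome-wide background, the lowest level MACS2 expects anywhere in a library, was 0.199 fragments per position in WT. In KO it was 2.36 fragments, or 1.71 after the scale of 0.723 that MACS2 applied there, 11.8 times the WT level before scaling. MACS2 derives this level from the number and length of the fragments of a library. No read numbers were at hand, so depth was known only through this recovered level, which was lower for the library with the longer list.

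The lowest peaks called differed between the lists. At the genome-wide background, 3 fragments made a peak in WT, at 15.0 times the expected level and a fold of 3.33. In KO the lowest peak at that background had 15 fragments, at 6.35 times the expected level and a fold of 4.37. Of the 36561 WT peaks at the genome-wide background, 4 (0.0109%, 0.00425 to 0.0281) overlapped a KO peak. The part of depth and of the calling threshold in the absence of KO peaks was not tested.

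Most WT peaks rested on very few fragments. There were 18318 peaks on 3 fragments, 17250 on 4 and 9759 on 5, together 81.1% of the list. The median WT-specific peak had 4 fragments, a fold of 4.17 and a width of 225 bp (quartiles 184 and 320). At the other end, the strongest WT-specific peak had 635 fragments. The KO peaks rested on a median of 73 fragments and had a median width of 408 bp and a median fold of 4.93. The ratio of fragments to expected background, without the 1 that the fold adds to both terms, had the opposite order. Its median was 20.1 in WT-specific peaks and, after scaling, 5.79 in KO peaks. The order of the median fold and width also depended on which peaks were kept. With a −log10 q-value of at least 5 in both lists the median fold was 6.67 in WT-specific and 5.26 in KO peaks, and among the 257 WT peaks of highest −log10 q-value those that were WT-specific had a median fold of 25.9 and a median width of 836 bp. The expected background under KO peaks had a median of 5.27 times the genome-wide level of that library, and that under WT-specific peaks a median of 1.00.

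The share of WT peaks that were also in KO followed the local background. Of 53515 WT peaks where the expected background was below 2 times the genome-wide level, 11 (0.0206%, 0.0115 to 0.0368) were also in KO. The share was 0.897% of 2117 peaks at 2 to 5 times, 19.4% of 124 at 5 to 10 times and 60.2% of 98 at 10 to 100 times. It reached 75.8% (59.0 to 87.2) of the 33 peaks at 100 times and above. The 138 shared WT peaks lay on a median background of 21.7 times the genome-wide level.

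**Figure D1:**
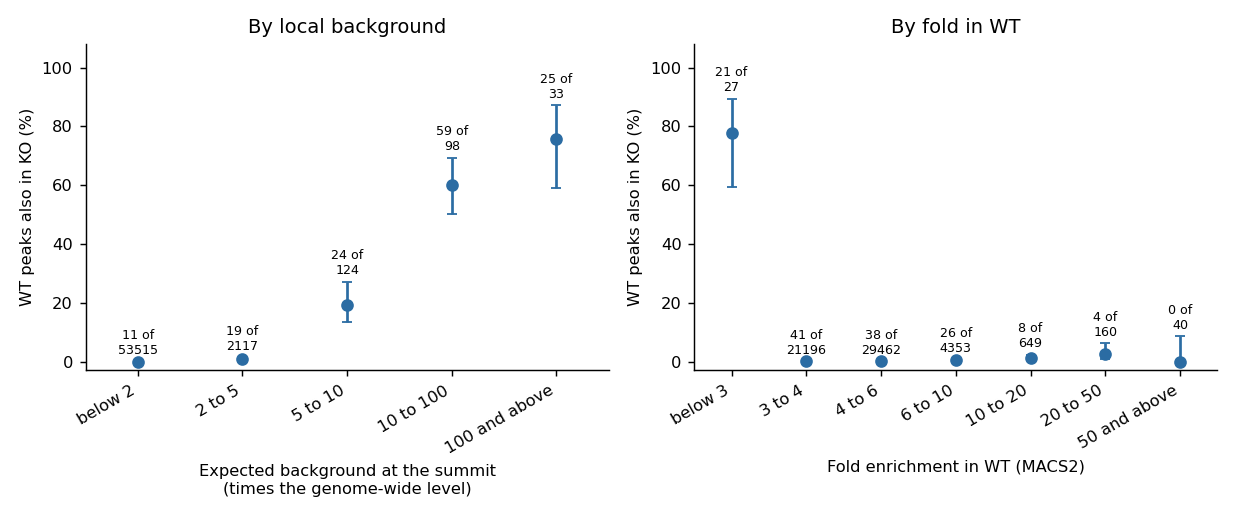
Percent of WT MLL4 peaks that were also in KO (vertical axis), by the expected background at the summit (left) and by the fold in WT (right); points are shares, bars are 95% Wilson intervals and labels give the counts. The share climbs from 11 of 53515 to 25 of 33 with the background, while by fold it is high only below 3-fold (21 of 27).

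**Figure D2:**
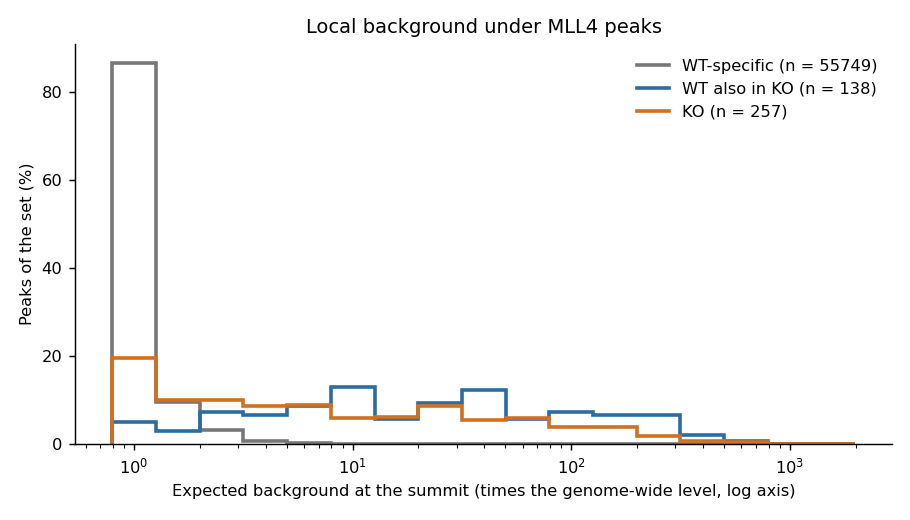
Distribution of the expected background at the peak summit, in multiples of the genome-wide level of the library (log axis), as the percent of peaks in each set. WT-specific peaks pile up at 1, whereas KO peaks and WT peaks also in KO spread over the range above it, with medians of 5.27 and 21.7.

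By fold, 21 of the 27 WT peaks below 3-fold (77.8%, 59.2 to 89.4) were also in KO. At the genome-wide background no WT peak was called below 3.33-fold, and all 27 lay at 10 times that background or more. This stratum therefore repeats the high-background classes above and is not a separate pattern by fold. The 27 peaks had a median of 75 fragments on a background of 157 times the genome-wide level. Between 3- and 4-fold 0.193% of 21196 peaks were shared, and between 4- and 6-fold 0.129% of 29462. The share was 0.597% of 4353 peaks at 6- to 10-fold, 1.23% of 649 at 10- to 20-fold and 2.50% of 160 at 20- to 50-fold. None of the 40 peaks of 50-fold and above was in KO, which allows a share of up to 8.76% by the Wilson interval. Of all 849 WT peaks of at least 10-fold, 12 (1.41%) were shared, and of the 691 of them on a background below 2 times the genome-wide level, 2 were. The 837 WT-specific peaks of at least 10-fold made up 1.5% of the WT list.

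The KO peaks were arranged differently across the genome from the WT peaks. By chromosome, 18.7% of KO peaks and 1.59% of WT peaks lay on chromosome 21, and 15.2% and 8.64% on chromosome 1. The shares were 14.4% and 4.64% on chromosome 9, and 10.1% and 5.60% on chromosome 16. Chromosomes 6, 13 and 14 held 2532, 1215 and 1823 WT peaks and no KO peak. WT peaks were spread over all autosomes, from 1.59% of the list on chromosome 21 to 8.64% on chromosome 1.

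**Figure D3:**
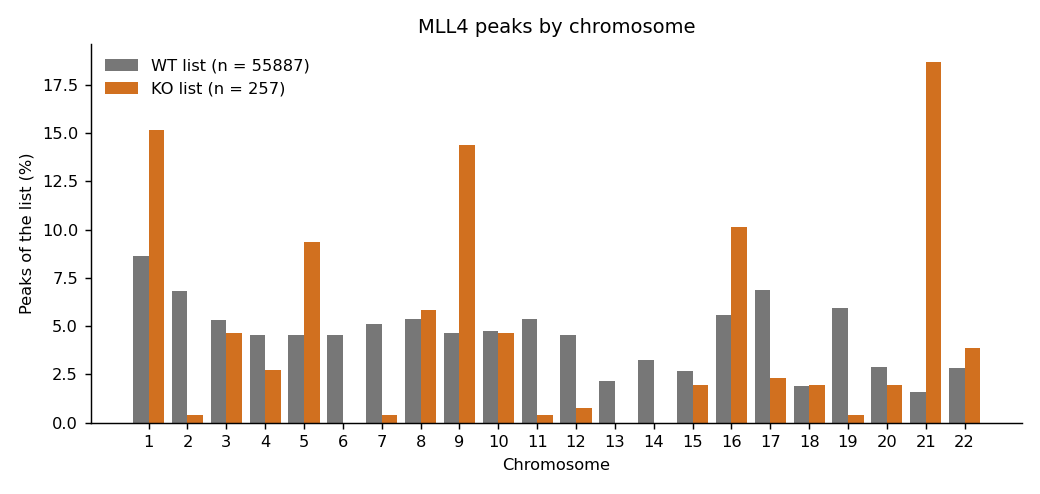
Percent of each MLL4 peak list on each of chromosomes 1 to 22, with 55887 WT peaks (grey) and 257 KO peaks (orange). The KO bars stand highest on chromosomes 21, 1 and 9, and chromosomes 6, 13 and 14 have none.

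Within chromosomes the KO peaks were clustered. Joining peaks within 1 Mb gave 41 clusters, of which 16 with at least 5 peaks held 219 of the 257 (85.2%). The 5 largest held 133 (51.8%). They were 47 peaks at chr21:8005380-10789804, 37 at chr9:60568028-60687370, 21 at chr1:143187120-143267165, 15 at chr5:49610063-50145093 and 13 at chr16:34571648-34595738. The chromosome 21 cluster lies on the acrocentric short arm, where the ribosomal DNA copies of this assembly and several pseudogenes are annotated. The clusters on chromosomes 9, 1 and 5 stand inside the longest gene-free stretch of their chromosome, and the cluster on chromosome 16 lies outside it. Of all KO peaks, 154 (59.9%, 53.8 to 65.7) lay in or within 1 Mb of the longest gene-free stretch of their chromosome, compared with 1.17% of WT-specific peaks (1.08 to 1.26) and 76.1% of the WT peaks that were shared.

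Annotated genes were rare under KO peaks. Of 257 KO peaks, 25 (9.73%, 6.68 to 14.0) lay on any annotated gene and 7 (2.72%) on a protein-coding gene, and the median distance to a coding gene start was 374425 bp. WT-specific peaks lay at a median of 18905 bp from a coding start, 16.1% (15.8 to 16.4) within 1 kb of a start and a further 48.0% inside coding genes. The shared WT peaks resembled the KO peaks here, with 1 of 138 at a promoter and 0 elsewhere in a coding gene. Over genes, 7652 of 19126 coding genes (40%) had a WT peak within 1 kb of a start, and 14332 (74.9%) had at least 1 WT peak assigned within 100 kb. Only 21 coding genes (0.11%) had a KO peak assigned.

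Several of these genes belong to multicopy families. LOC101929601, on chromosome 8 inside the REXO1L repeat, had 8 KO peaks assigned, LOC101927345 and LOC124902048 had 3 each, and FAM90A10 and FCGR2A had 2. The 3 KO peaks within 1 kb of a coding gene end were at USP17L24 on chromosome 4 (5.41-fold), FAM90A10 (7.30-fold) and LOC101929601 (6.68-fold), all 3 called in KO only. USP17L24 is a copy of a deubiquitinase gene family and FAM90A10 of a primate gene family. Reads from such copies could not be assigned with certainty to 1 of them, and the labels name no mapping filter. On unique coding genes, KO peaks lay inside MYO1C, an unconventional myosin (chr17:1469274-1469545, 8.74-fold, KO only), and inside NCOA6, a subunit of the MLL4 complex itself (chr20:34742209-34742608, 5.44-fold, 19 fragments, in none of the 16 lists of other targets). Other KO peaks on coding genes were in NBPF1, NBPF8 and LOC101927345.

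The strongest KO peaks that were also in WT showed similar folds in some places and unlike folds in others. The highest KO fold, 21.8 on 105 fragments, was at chr9:60568028-60568938, where the WT fold was 3.28. At chr17:43246448-43246816, 785 bp from LOC124904137, the fold was 16.7 in both genotypes. The fold adds 1 to both of its terms, so equal folds need not be equal ratios of fragments to background. The WT peak had 19 fragments on a background of 0.199, and the KO peak 61 fragments, after scaling 25.8 times the expected level. That peak had a genome-wide level of background, lay 15380 bp from the nearest coding start, of CCDC200, and was overlapped by a peak in 16 of the 16 other lists, with H3K27ac at 304- and 320-fold in the WT libraries and at 71.1- and 76.7-fold in the KO libraries. A pair of KO peaks of 11.9-fold, 43 fragments each, stood within the tRNA gene cluster of chromosome 1 at chr1:161444778-161445104 and chr1:161454000-161454327, next to TRG-GCC1-1 and TRE-CTC1-3, where WT peaks of 7.60- and 7.504-fold were called.

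On chromosome 21 the order was reversed at several sites. Beside LINC01666 (chr21:8806983-8807298) the KO fold was 12.3 and the WT fold 39.9. At LINC01667, a long noncoding RNA, the KO folds of the peaks at chr21:9815781-9817224 and chr21:9824369-9824709 were both 12.1 and the WT folds 19.5 and 15.0. Chromosome 22 had both orders. The KO fold was the higher at chr22:11817617-11817979, near LOC107984037, with 12.9 against 5.00. The WT fold was the higher at chr22:12177811-12178119, with 18.2 against 8.80, and at another shared peak, with 4.72 against 2.78. Over all 117 shared KO peaks, the KO fold was higher at 55 and the WT fold at 62, with medians of 5.08 in KO and 4.93 in WT. These orders hold for the fold with its added 1, and were not compared pair by pair without it. Without the added 1, the median ratio to background was 5.81 in these KO peaks and 5.90 in the 138 shared WT peaks. The summits of the 146 overlapping pairs lay a median of 64.5 bp apart, and 82 pairs (56.2%) were within 100 bp.

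The 140 peaks called in KO only had a median fold of 4.85, a median of 46.5 fragments and a background of 3.14 times the genome-wide level. The highest, 13.1-fold, was at chr1:124936592-124938525, inside the longest gene-free stretch of chromosome 1. The next, 12.1-fold on 44 fragments, was at chr5:17599007-17599320, 1349 bp from TAF11L10, a member of a repeated gene family. Of the 10 strongest, none lay on an annotated gene and 9 were in at least 1 list of another target. A peak at chr5:50133186-50133554, 262777 bp from EMB, was in no other list, with 10.5-fold and 38 fragments.

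A smaller group of KO peaks did stand on low background. Of the 76 KO peaks below 2 times the genome-wide level, 20 (26.3%, 17.7 to 37.2) were also in WT, 17 lay on an annotated gene, 13 at a KO histone peak and 27 in no other list. In or within 1 Mb of the longest gene-free stretch were 24 of them (31.6%), a smaller share than the 59.9% of all KO peaks. This group holds the chromosome 17, tRNA cluster and LINC01667 peaks named above, and the peak near ONECUT3, a homeobox gene on chromosome 19, where the WT fold was 20.01 and the KO fold 4.64.

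The lists of the other targets were then laid over the MLL4 peaks. Of WT-specific peaks, 51.5% (51.1 to 51.9) overlapped a WT histone peak that was present in every WT library of its mark: 44.9% H3K27ac, 37.6% H3K4me1 and 15.8% H3K4me3. The shared WT peaks did so less, 20.3% for any mark and 12.3% for H3K27ac. A KO histone peak lay over 19.5% (15.1 to 24.7) of the KO peaks, 29.9% of those also in WT and 10.7% of those in KO only. The KO histone lists are shorter, with 42864 H3K4me1 peaks against 122917 in WT, so the 19.5% is not a like measure to the 51.5%. The same KO histone peaks lay over 25.3% of WT-specific and 24.6% of shared WT peaks. WT histone peaks lay over 16.3% of KO peaks. Of WT-specific peaks, 39.8% were in none of the 16 other lists and 14.3% in at least 12.

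MLL1 gave a different picture. The MLL1 list of WT cells overlapped 94.2% of the WT MLL4 peaks that were also in KO, 48.6% of the KO-only peaks and 15.7% of the WT-specific peaks. The MLL1 list of KO cells overlapped 18.8%, 2.14% and 21.03% of the same sets. The 4 p53 lists overlapped between 39.9% and 58.0% of the shared WT peaks and between 19.2% and 30.5% of the WT-specific peaks. The recovered genome-wide backgrounds of these lists were 0.861 for MLL1 in WT, 0.544 for MLL1 in KO, 0.324 and 0.419 for the p53 libraries of WT cells, and 0.958 and 0.575 for those of KO cells. All 6 exceeded the 0.199 of the MLL4 library in WT and none reached the 2.36 of the MLL4 library in KO. The part of sequencing depth in these overlaps was not tested.

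**Figure D4:**
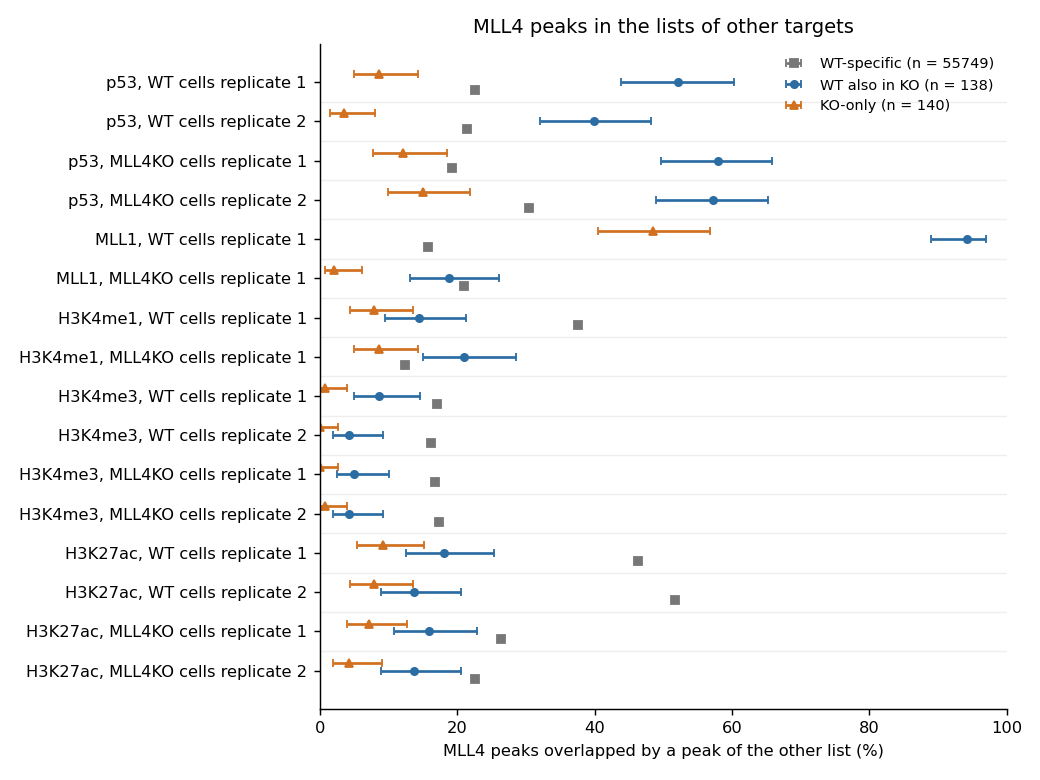
Percent of MLL4 peaks overlapped by a peak of each of the 16 lists of other targets (horizontal axis), for WT-specific, shared WT and KO-only MLL4 peaks, with 95% Wilson intervals. The MLL1 list of WT cells covers 94.2% of shared WT peaks and 15.7% of WT-specific peaks, and the H3K27ac lists of WT cells cover more of the WT-specific peaks than of the other sets.

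Among WT-specific peaks, H3K27ac and MLL1 were more frequent at higher fold. Peaks of higher fold were also wider, and an overlap needed only 1 bp: the median width of WT peaks was 200 bp at 3- to 4-fold, 363 bp at 6- to 10-fold and 797 bp at 50-fold and above. The part of width in these shares was not tested. H3K27ac of both WT libraries overlapped 28.1% of the 21155 peaks of 3- to 4-fold, 53.9% of 29424 at 4- to 6-fold, 62.2% at 6- to 10-fold and 85.0% of the 40 peaks of at least 50-fold. MLL1 in WT overlapped 6.51% at 3- to 4-fold, 32.0% at 6- to 10-fold and 85.0% at 50-fold and above. The share in no other list fell from 57.5% to 0 of 40. H3K4me1 levelled off, with 25.4% at 3- to 4-fold, 56.6% at 10- to 20-fold and 47.5% at 50-fold and above. H3K4me3 was at 7.18% at 3- to 4-fold, 30.1% at 6- to 10-fold, 30.3% at 10- to 20-fold, 25% at 20- to 50-fold and 27.5% at 50-fold and above.

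**Figure D5:**
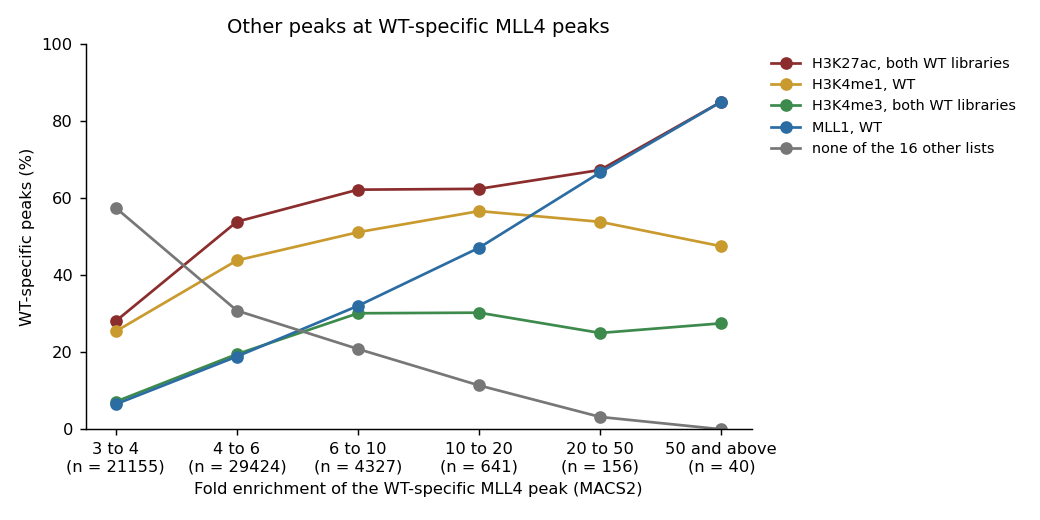
Percent of WT-specific MLL4 peaks overlapped by H3K27ac, H3K4me1, H3K4me3 or MLL1 peaks of WT cells, or by none of the 16 other lists, against the MLL4 fold in WT. H3K27ac and MLL1 both reach 85.0% at 50-fold and above, where no peak lacks a peak of another list.

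The marks of WT-specific peaks differed in whether they were also called in KO cells. Where a WT-specific MLL4 peak overlapped WT H3K4me3, 8607 of 8804 (97.8%, 97.4 to 98.1) also overlapped H3K4me3 in both KO libraries. For H3K27ac the number was 11237 of 25022 (44.9%, 44.3 to 45.5) and for H3K4me1 6337 of 20954 (30.2%, 29.6 to 30.9). The kept share of H3K4me1 was 24.5% at 3- to 4-fold and 55.4% at 10- to 20-fold, and that of H3K27ac 35.3% and 59.2%. Both were lower above that, with 52.4% of H3K4me1 and 55.2% of H3K27ac at 20- to 50-fold. At 50-fold and above they were 42.1% (8 of 19) and 41.2% (14 of 34). H3K4me1 has 1 library per genotype. Peaks of each mark in WT cells were also counted, whether or not MLL4 lay there. All 122917 H3K4me1 peaks entered, but only a part of each list of the other marks. For H3K27ac these were 120243 of 137489 and 116544 of 196645 peaks, and for H3K4me3 16940 of 20380 and 17012 of 19153. The marks were thus not counted alike. The order was the same: 90.5% of these H3K4me3 peaks of either library were kept, 25.3% and 27.1% of the H3K27ac peaks and 22.7% of the H3K4me1 peaks. Counted by peaks of the mark, those at a WT-specific MLL4 peak were kept at 98.2% for H3K4me3 of either library, 55.1% and 55.5% for H3K27ac and 55.05% for H3K4me1, and those at no WT MLL4 peak at 85.0% and 85.2%, 19.6% and 21.4%, and 18.6%. The H3K4me1 peaks at a WT-specific MLL4 peak had a median width of 3190 bp and those at no WT MLL4 peak 854 bp. Their median folds were 5.60 and 3.66. In replicate 1 of H3K27ac the widths were 1805 and 662 bp and the folds 8.09 and 4.68, and in replicate 1 of H3K4me3 they were 2343 and 1559 bp and 115.6 and 49.3. The part of width and of fold in these shares was not tested.

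The 15 strongest WT-specific peaks fell into genes of short structural RNAs, ribosomal DNA and the bodies or promoters of coding genes. RN7SL1 and RN7SL2, which encode the RNA of the signal recognition particle, had 530-fold (chr14:49586583-49586877, 635 fragments) and 288-fold (chr14:49862552-49863007, 345 fragments). RN7SK, the RNA that holds the elongation factor P-TEFb inactive, had 310-fold on 419 fragments (chr6:52995620-52995922), and the pseudogene RN7SL4P inside ANKRD28 had 167-fold. The MLL1 folds at these sites in WT were 87.0 at RN7SL1, 52.1 at RN7SL2, 48.0 at RN7SK and 37.1 at RN7SL4P. No p53 peak was called at RN7SL1, RN7SK or RN7SL4P.

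Of 21 short structural RNA genes transcribed by RNA polymerase III, 6 were under a WT MLL4 peak, with a median fold of 214, and none had a KO peak. They were RN7SL1, RN7SL2, RN7SK, RPPH1 (139-fold), RN7SL3 (50.7-fold) and RMRP (45.0-fold), the RNA of ribonuclease MRP. The RN7SL1 peak stayed within the bounds of its gene (chr14:49586580-49586878), as did the peaks at RN7SL3 and RN7SK. Those at RN7SL2 and RPPH1 reached beyond the gene. Whether these peaks reflect MLL4 on chromatin was not tested. The U6, vault RNA and Y RNA genes of the list had no MLL4 peak. H3K27ac of both WT libraries lay over 2 of the 4 vault RNA genes and 0 of the 4 Y RNA genes. It also lay over RNU6-7, RNU6-8, RNU6-9, RNU6-2 and RNU6ATAC, and not over RNU6-1. Of 25 structural RNA genes transcribed by RNA polymerase II, 3 had a WT peak: SCARNA2 (11.5-fold), SNORD3A (8.34-fold) and RNU2-2 (4.08-fold). The share over all 56756 annotated genes was 33.2% with a WT peak and 0.0352% with a KO peak. Of 439 tRNA genes, 8 (1.82%) lay under a WT MLL4 peak and none under a KO peak, while MLL1 covered 40 in WT cells and 67 in KO cells.

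Ribosomal RNA genes lay under WT peaks at a share close to that of all annotated genes. Of 49 rRNA genes, 15 (30.6%, 19.5 to 44.5) lay under a WT peak, beside the 33.2% of all genes, and 12 of them had 10-fold or more. The highest, 171-fold at chr21:8433589-8436971, covers RNA18SN1 and RNA45SN1, and p53 reached 154- and 287-fold there in the WT libraries and 26.5- and 43.2-fold in the KO libraries. The copy RNA45SN3 had WT peaks of 115-fold and, over the RNA28SN3 part of the same gene, 81.5-fold. Neither RNA45SN3 nor RNA45SN1 had a KO peak on the gene. KO peaks stood outside them, at chr21:8405439-8405768, 3258 bp from RNA45SN3 (KO fold 11.1, WT fold 7.35), and at chr21:8451965-8452406, 5583 bp from RNA45SN1 (9.72 and 11.1). Of 1150 snoRNA genes, 71 (6.17%) lay under a WT peak, with a median fold of 9.69, and none under a KO peak. The 33.2% counts genes of every length, and small RNA genes are short. Copies of such genes are near-identical, so the copy from which a fragment came is uncertain.

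Of 1461 miRNA hairpins, 96 (6.57%) lay under a WT peak and none under a KO peak, beside 33.2% and 0.0352% of all annotated genes. Of all 1793 annotated miRNA genes, 111 lay under a WT peak, among them MIR3648-1 at 55.5-fold on chromosome 21. Among the mature miRNA sequences at hand, the highest folds were over hsa-miR-10396b and hsa-miR-10396a, inside ribosomal DNA copies on chromosome 21. Their 3p arms, shown because they share a seed (bases 2 to 8, in capitals), are from RefSeq on GRCh38.p14.

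hsa-miR-10396b-3p, chr21:8436353-8436374, plus strand: gGCCCCGGgcccucgaccggac

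hsa-miR-10396a-3p, chr21:8987645-8987665, plus strand: gGCCCCGGgcccucgaccggg

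The WT MLL4 fold was 171 over the former and 32.5 over the latter. Over the latter the MLL1 list of KO cells had a peak of 5.18-fold, and the MLL1 list of WT cells had none over either.

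Coding genes among the strongest WT-specific peaks had the signal mostly inside the gene. GAK, a clathrin uncoating kinase, had 96.2-fold on 118 fragments (chr4:905255-905951), 26765 bp from the nearest start. FAM53A (86.7-fold), TUBB3 (85.9-fold), MCF2L (83.4-fold) and CBFA2T3 (82.1-fold) were also among them, and SEC1P, a pseudogene whose peak lay within 1 kb of CA11, had 92.5-fold. At GAK, FAM53A, TUBB3, MCF2L and CBFA2T3 no H3K4me3 peak was called in either genotype. MLL1 folds at these 5 genes were 141, 106, 166, 55.0 and 181 in KO cells and 18.0, 8.06, 19.9, 18.8 and 17.1 in WT cells. These MLL1 values come from libraries of unlike depth and were set side by side without a test.

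The genes with the most WT-specific peaks assigned were not those with the strongest. TSNARE1 had 52 and ZNF469 50, followed by PLEC (42), SEPTIN9 (41), ADGRB1, GALNT9 and ZC3H3 (39 each), RXRA (37), and ACSF3 and BAHCC1 (36 each). The strongest peak at TSNARE1 was 7.504-fold, and 6 of these 10 genes had a peak of at least 10-fold. TSNARE1, PLEC, ADGRB1 and ZC3H3 lie on chromosome 8, ZNF469 and ACSF3 on chromosome 16, and SEPTIN9 and BAHCC1 on chromosome 17. Chromosome 8 had the most WT peaks per 100 coding genes, 420. The part of copy number in these counts was not tested. Peaks of at least 10-fold were assigned to 628 coding genes (3.28%). FN1, which encodes fibronectin, and CCDC200 had 6 such peaks each, LOC124905938 5, and PLEC (plectin), GALNT9, FASN (fatty acid synthase) and TF (transferrin) were among those with 4. Of the genes named here, only CCDC200, beside the chromosome 17 peak described above, also had a KO peak.

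In the H3K4 methyltransferase list, 15 of 19 genes measured had a WT peak assigned and 11 (57.9%) had one at the promoter, against 40% of all coding genes. KMT2A had the highest, 18.3-fold on 21 fragments at its promoter (chr11:118436027-118436758), and KDM5B, an H3K4 demethylase, 13.3-fold. KMT2C, the gene of MLL3, had 8.34-fold and KMT2D 5.84-fold on 6 fragments. WDR5 had 11 peaks of up to 5.00-fold. NCOA6 alone in this list had a KO peak.

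Of 29 p53 target genes measured, 24 had a WT peak assigned, 15 (51.7%) at the promoter. None had a KO peak, beside 0.11% of all coding genes. None had a peak of 10-fold or more, beside 3.28% of all coding genes. CDKN1A had 6 peaks of up to 6.67-fold, and its promoter peak (chr6:36678554-36678818) was overlapped in 16 of the 16 other lists. MDM2, the ubiquitin ligase that degrades p53, had 1 peak of 3.33-fold inside the gene and none at the promoter. TP53INP1 had 10 peaks of up to 5.84-fold, TNFRSF10B, a death receptor gene, 7, and BBC3, the gene of PUMA, 6 of up to 6.77-fold.

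Genes of the other lists were compared in the same way. Of 25 AP-1 and immediate early genes, 24 had a WT peak assigned and 18 (72.0%) a promoter peak. IER2 had 11 peaks, SPRY4, an inhibitor of growth factor signalling, 9 of up to 8.34-fold, and SPRED2 8 of up to 12.9-fold. Of 32 colon epithelium and Wnt genes, 28 had a WT peak and 19 (59.4%) a promoter peak. AXIN2, a feedback inhibitor of Wnt signalling, had 19 peaks of up to 9.17-fold, TCF7L2 11, EPHB3 9 and SOX9 8, and KRT18 had the strongest peak of the list, 10.8-fold at its promoter.

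Of 28 TGF-beta, EMT and mesenchyme genes, 26 had a WT peak and 17 (60.7%) a promoter peak. COL5A1 had 16, FN1 12 of up to 14.9-fold, ITGB4 11, and VIM, the gene of vimentin, 5 of up to 13.7-fold. The 28 cell cycle genes had 23 and 14 (50%), led by CCND1 with 16 peaks of up to 7.38-fold, and none reached 10-fold. The 24 housekeeping genes had 22 and 16 (66.7%), with 33.3-fold at the promoter of ACTB and 24.3-fold at EEF1A1.

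Genes of other lineages were not free of WT peaks. Of 19 hematopoietic markers, 15 had a WT peak assigned and 8 (42.1%) a promoter peak, and of 17 neuronal markers 17 and 8 (47.1%). RUNX3 had 11 and RBFOX3 31 peaks, of up to 7.46- and 9.20-fold. TUBB3 is the neuronal marker with the strongest, the 85.9-fold peak inside the gene. Neither list had a KO peak, like every other list but that of the methyltransferases. With 0.11% of all coding genes having a KO peak, lists of this size would mostly hold none. These lists were chosen with earlier results of the data known. Their WT counts are descriptions read beside the 74.9% and 40% of all coding genes.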

How the data were processed

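The 18 peak lists were called with MACS2 2.1.1 on hg38, per the submitters' processing notes, each library alone against the input of its genotype, per the names in the deposited files. Aligner and read filters, not given in the sources used here, could not be checked. The deposited fold is a ratio of ChIP over local background, beside the authors' −log10 p-value, −log10 q-value and a score made from the q-value. Folds of different lists were set side by side without a test. Fragments and background were solved from the authors' fold and −log10 p-value. Overlaps needed 1 bp (checked against bedtools 2.31.1). RefSeq on GRCh38.p14 gave genes. Starts were known for 15101 of 19126 coding genes, and both ends stood in for the other 4025. Python 3.11.15, numpy 2.4.6, pandas 2.3.3 and scipy 1.17.1 were used. Peaks were assigned to the nearest coding start within 100 kb. Named genes were those of the strongest or most numerous peaks, up to 4 per list with the most WT peaks, those with a KO peak and 5 fixed genes (KMT2D, KMT2C, KMT2A, CDKN1A, MDM2); 2 genes named by this rule are not reported here. The members, 11 gene lists (277 genes) and rules were chosen with earlier results of these data known. No fit or test across libraries was made.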

Additional observations from a re-analysis of the deposited data

How the results depend on the processing

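No paired analysis was possible because the MLL4 antibody has 1 library per genotype. Of 101 alternatives over 15 results, 56 stayed within the counting interval, 41 moved and 4 reversed. Each value rests on 1 MLL4 library per genotype, and most WT peaks on few fragments. With a −log10 q-value of at least 5, the log2 ratio of peak numbers was -5.37, 0.943% of WT peaks were in KO and 36.0% of KO peaks in WT, and WT-specific peaks had 27.4% at promoters, 70.4% at a histone peak, a median width of 353 bp, a median fold of 6.67 and 28.7% in most other lists. With the WT list reduced to the 257 peaks of highest −log10 q-value, 7.39% of WT peaks were in KO and 9.34% of KO peaks in WT, and WT-specific peaks had 21.8% at promoters, 73.5% at a histone peak, a width of 836 bp, a fold of 25.9 and 24.4% in most other lists. Requiring an overlap of 50% gave 0.118% and 25.7%, and allowing 1 kb gave 0.301% and 58.4%. Without peaks in at least 12 other lists, 6.41% of WT-specific peaks were at promoters and 43.4% at a histone peak, with a width of 218 bp. The promoter share was 20.2% with 2 kb and 17.8% with either gene end. With chromosome X the histone share was 51.1%. Leaving out 1 library of H3K27ac or H3K4me3 in turn gave 51.5% to 56.1% of WT-specific peaks and 19.5% to 21.01% of KO peaks at a histone peak. A limit of 8 lists gave 20.2% of WT-specific and 10.1% of KO peaks. Further alternatives were chosen after seeing the data. Below 2 times the genome-wide background in both lists, the log2 ratio was -9.46, with 0.0149% of WT and 10.5% of KO peaks shared. With WT peaks of at least 6 fragments the log2 ratio was -5.36, 1.23% of WT peaks were in KO, and WT-specific peaks had 25.2% at promoters, 65.6% at a histone peak and 26.0% in most other lists. In all peaks, the median ratio of fragments to background without the 1 added in the fold was 20.1 in WT-specific and 5.79 in KO peaks. The KO minus WT-specific difference of the median fold, 0.76 in all peaks, was reversed to -1.41 with a −log10 q-value of at least 5, -20.9 with the shortened WT list and -0.975 with WT peaks of at least 6 fragments, and was 1.93 below 2 times the background. That of the median width, 183 bp in all peaks, was reversed to -428 bp with the shortened list, and was 84 bp, 76 bp and 96 bp with that q-value, 6 fragments and low background. Without the 5 largest KO clusters, the 6 results on KO peaks stayed within their intervals.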

Other observations

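Chromosome X, which entered no count above, held 883 WT peaks and 21 KO peaks, of which 17 WT peaks and 13 KO peaks overlapped a peak of the other genotype. The median fold was 4.04 in WT and 5.71 in KO. None of the 21 KO peaks lay on an annotated gene, and all 21 fell within 2 stretches, chrX:58540647-58553782 with 5 peaks and chrX:62463374-62501289 with 16. The highest fold was 18.1 (chrX:58552248-58553782), and 1 of the 21 was in none of the 16 lists of other targets.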
